A study of Mus musculus with 8 samples.

Results

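The protein 4.1 family was followed in the cortex of mice without Nova2. The family was listed as Epb41, Epb41l1, Epb41l2 and Epb41l3, and a probe set belonged to it when the platform annotation gave it the name of one of these genes alone, with older names accepted. Of the 4 listed genes, 3 were found among 12921 named genes: Epb41l1 (listed as Epb4.1l1, 37 probe sets), Epb41l2 (listed as Epb4.1l2, 32 probe sets) and Epb41l3 (listed as Epb4.1l3, 40 probe sets). No probe set carried the name of Epb41, so the red cell member was not analysed here. The 3 measured genes held 109 of 391597 probe sets. Their probe sets were picked by gene name, and the family was chosen with earlier results of these data known.

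Cortical RNA of 8 CD1 mice, taken at postnatal day 10, was hybridised to Affymetrix mouse exon arrays. Of the mice, 4 were Nova2 knockouts (Nova2 KO) and 4 were wild type, and each had its own array. The sources used here do not give how the Nova2 allele was made, and no mouse was described as treated. Nova2 is an RNA-binding protein of neurons that regulates alternative splicing, and the comparison asks which transcripts and exons depend on it.

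Proteins of the 4.1 family link membrane proteins to the cytoskeleton of spectrin and actin that lies under the plasma membrane. Each carries a FERM domain, which binds the tails of membrane proteins, and most forms carry a segment that binds spectrin and actin together with a tail domain that binds further partners. Epb41 encodes 4.1R, first known from red blood cells, Epb41l1 encodes the neuronal form 4.1N, Epb41l2 the widely expressed form 4.1G, and Epb41l3 the form 4.1B, which is abundant in brain. Their transcripts are known for extensive alternative splicing. In neurons, 4.1N binds AMPA receptor subunits and the inositol trisphosphate receptor, and 4.1B lies beside the nodes of Ranvier with the adhesion molecule Cntnap2.

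The 8 arrays were comparable but not equal. Array medians were 7.06 to 7.37 log2 in Nova2 KO and 7.02 to 7.37 log2 in wild type, with the lowest on both arrays numbered 4. Spearman correlations between arrays were 0.935 to 0.976. As a check of the labels, chosen after its values were seen, Nova2 probe set 5294108 lay at 6.28 to 7.26 log2 on Nova2 KO arrays and at 8.53 to 8.87 log2 on wild type arrays (difference -1.82 log2, SE 0.22, limma adjusted p = 0.0786 over all kept probe sets). Of its 16 kept probe sets 6 were lower and 10 higher in Nova2 KO, among them 4414499 (0.70 log2, limma adjusted p = 0.321) and 4355944 (0.40 log2, limma adjusted p = 0.7), where all Nova2 KO values lay above all wild type values. The gene value of Nova2 differed by -0.016 log2 (limma adjusted p = 0.975), and the sources do not say which part of the gene the knockout removes. The neuron markers measured (4 of 5 listed) had mean gene values of 11.79 log2 or more, and those of cortical excitatory neurons (4 of 5) ranged between 7.71 and 12.08 log2. Nothing in the labels says whether the mice came from separate litters, so p-values rest on the spread between these mice. In limma this spread is moderated toward that of all probe sets or genes fitted, so SE and p do not reflect 1 probe set alone.

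At the level of the whole gene, none of the 3 measured protein 4.1 genes passed the threshold. The gene value is the median log2 signal over the probe sets of a gene that passed a filter on low signal, and the threshold is an adjusted p of 0.05 over all 11992 genes tested. Over all genes, 25 passed (0.208%), and 1389 had an unadjusted p under 0.05 (11.6%). For Epb41l1 and Epb41l3 the unadjusted p was under 0.05, and diffSplice, which tests exon usage only, gives no value for this measure. Because probe sets differ in how strongly they bind, signals of different genes or probe sets on an array cannot be ranked, and only differences between groups are compared.

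Epb41l1 had gene values of 10.17, 10.12, 9.99 and 9.94 log2 on Nova2 KO arrays 1 to 4, against 10.32, 10.36, 10.24 and 10.21 log2 on wild type arrays 1 to 4. All Nova2 KO values lay below all wild type values, as in 2.5% of all genes tested. The difference was -0.23 log2 (SE 0.095, n = 4 per group, 95% interval -0.44 to -0.021, limma unadjusted p = 0.0332, adjusted p = 0.383), so that the wild type signal was 1.17-fold that of Nova2 KO.

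For Epb41l3 the gene values were 9.42, 9.25, 9.52 and 9.32 log2 on Nova2 KO arrays, against 9.46, 9.69, 9.74 and 9.56 log2 on wild type arrays. The groups overlapped, because Nova2 KO array 3 lay above wild type array 1. The difference was -0.23 log2 (SE 0.10, 95% interval -0.46 to -0.0086, limma unadjusted p = 0.043, adjusted p = 0.411). With the mean over probe sets in place of the median it was -0.11 log2 (limma adjusted p = 0.636).

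Epb41l2 had gene values of 9.16, 9.19, 9.13 and 9.05 log2 on Nova2 KO arrays, against 9.03, 9.13, 9.24 and 9.05 log2 on wild type arrays. The 2 groups covered nearly the same range, and the difference was 0.018 log2 (SE 0.093, 95% interval -0.18 to 0.22, limma adjusted p = 0.967). With the mean over probe sets the sign turned, to -0.13 log2 (limma adjusted p = 0.598).

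**Figure D1:**
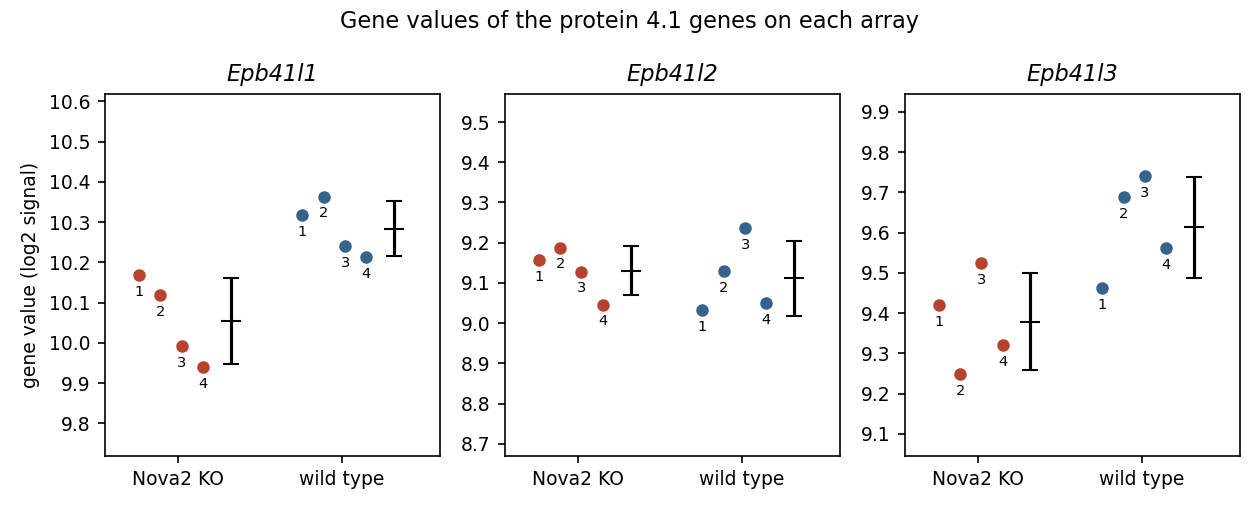
Gene values (log2 signal) of Epb41l1, Epb41l2 and Epb41l3 on each array, with Nova2 KO left of wild type; the digit under a point is the replicate number, and the bar gives the mean ± SD (n = 4). All Nova2 KO points of Epb41l1 lie below the wild type points, those of Epb41l3 overlap with them, and those of Epb41l2 cover nearly the same range; each panel spans the same number of log2 units.

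Single probe sets were then compared, since Nova2 is known as a regulator of exons. Of the 109 probe sets, 101 passed the filter (a mean over the 8 arrays above 5.86 log2): 36 of 37 for Epb41l1, 30 of 32 for Epb41l2 and 35 of 40 for Epb41l3. Each was tested on its signal and on its within-gene index, the log2 signal after subtraction of that array's gene value. A difference in the index shows a probe set that moved apart from its gene, and it also shifts when the gene value itself moves.

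None of the 101 protein 4.1 probe sets passed by signal or by index with limma, and the lowest adjusted p was 0.385 for signal and 0.273 for the index. Among all kept probe sets, 20 of 293697 probe sets passed by signal (0.00681%) and 26 of 195014 by index (0.0133%), so that none among 101 is what the background share gives. At an unadjusted p under 0.05 there were 18 by signal, of which 17 were lower and 1 higher in Nova2 KO, and 17 by index, of which 7 were lower and 10 higher. The matching background was 2.78% lower and 3.9% higher by signal, and 3.3% lower and 3.46% higher by index. None of them passed with diffSplice either, a test with 1 estimate of spread per gene. All Nova2 KO index values lay below all wild type values for 6 probe sets (2.05% of all) and above them for 6 (2.07% of all). Probe sets of 1 gene share the RNA of the same mice and are not replicates.

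Most signals of the family were lower in Nova2 KO. Of the 101 probe sets 76 were lower and 25 higher, with a median of -0.11 log2, beside a median of 0.012 log2 over all 195014 probe sets with an index, of which 47.6% were lower. Epb41l1 had 29 of 36 lower (median -0.21 log2), Epb41l3 had 27 of 35 lower (median -0.081 log2) and Epb41l2 had 20 of 30 lower (median -0.094 log2). All Nova2 KO values lay below all wild type values for 15 probe sets, 8 of them in Epb41l1, 5 in Epb41l3 and 2 in Epb41l2, where 2.04% of all kept probe sets did so. The reverse held for 2 probe sets, both in Epb41l2, against 3.05% of all kept probe sets. Probe sets of 1 gene share its level and the same mice, so these counts are a description of 3 genes and not a test. The gene values differed by -0.23 log2 for Epb41l1 and for Epb41l3 and by 0.018 log2 for Epb41l2, and none passed.

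The size of what these arrays could have shown is given by the 95% intervals of limma, taken for each probe set alone. No protein 4.1 probe set differed by more than 1 log2 in signal or index. For 90 of the 101 the interval of the signal difference lay within 1 log2 of 0 on both sides, and for 90 that of the index difference did. At 0.5 log2, 44 signal intervals and 53 index intervals lay within the bound, so that differences of that size remain possible for the others. The widest bounds were -1.47 and 0.99 log2 for signal and -1.44 and 1.19 log2 for the index.

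**Figure D2:**
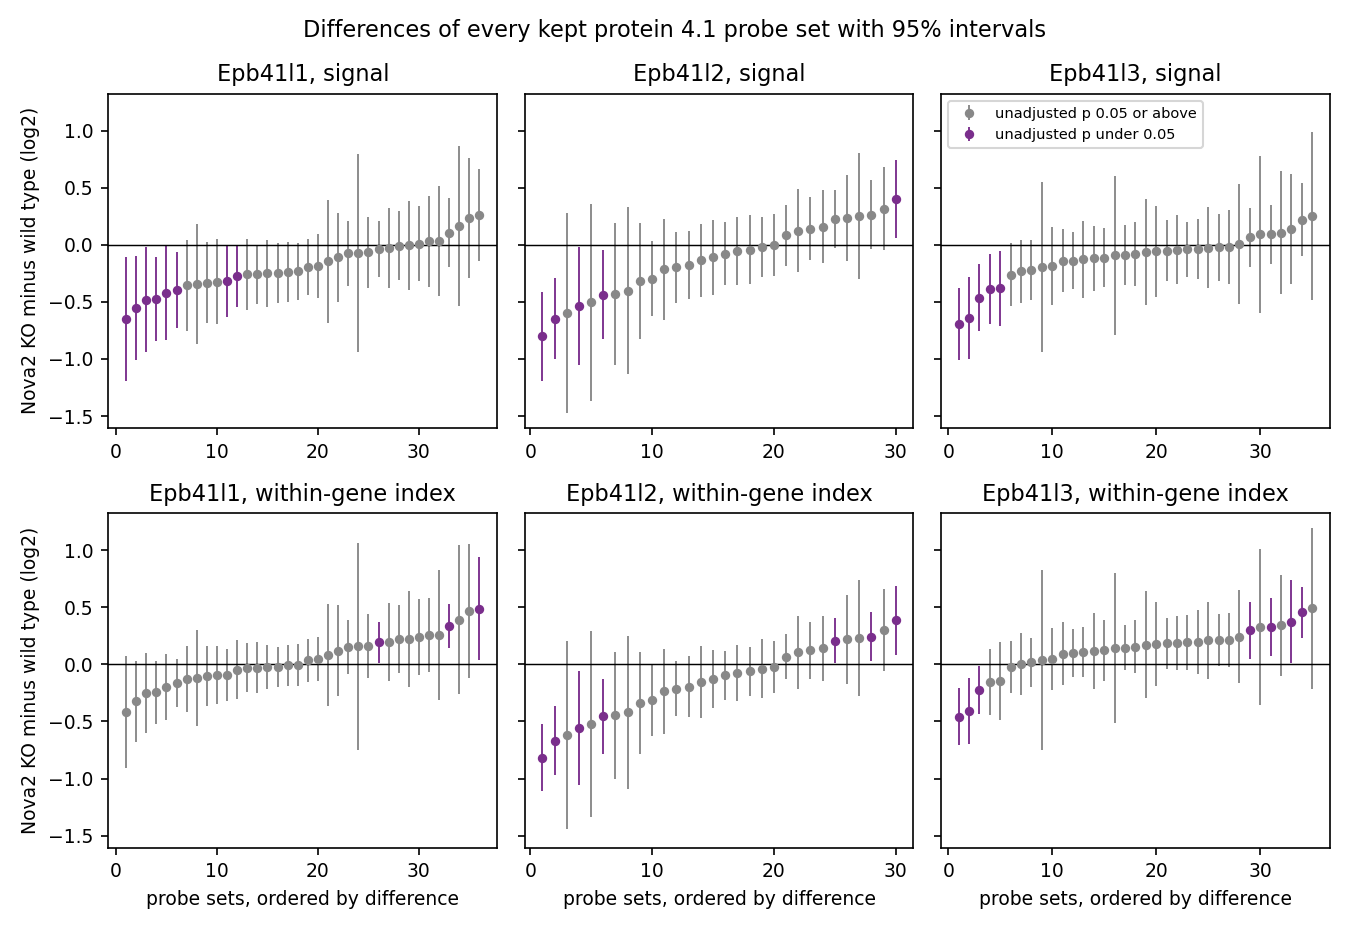
Nova2 KO minus wild type difference (log2) of each of the 101 kept probe sets, ordered by size within each gene, for the signal (upper row) and the within-gene index (lower row); bars are 95% intervals of limma and purple marks an unadjusted p under 0.05. Of the Epb41l1 signals 29 of 36 lie below 0, and the Epb41l2 index reaches -0.82 at its low end. The index is taken against the gene value, so its position about 0 depends on that step. Index differences lie above 0 for 18 of 36 Epb41l1, 10 of 30 Epb41l2 and 29 of 35 Epb41l3 probe sets.

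Epb41l1, the gene of 4.1N, had lower signals in 29 of 36 probe sets, 8 of them with an unadjusted p under 0.05. Its Simes p, which combines the index p-values of a gene, was 0.133 (adjusted p = 0.72, rank 2059 of 11187 genes). By index, 3 higher and 0 lower probe sets had an unadjusted p under 0.05.

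Probe set 5178851 of Epb41l1 had index values of -2.01, -1.91, -2.04 and -2.10 on Nova2 KO arrays, against -2.28, -2.35, -2.32 and -2.44 on wild type arrays. The groups did not overlap, which held for 2.07% of probe sets in this direction, and the index differed by 0.33 log2 (SE 0.085, limma adjusted p = 0.579). Its own signal was 8.16, 8.21, 7.95 and 7.84 log2 in Nova2 KO, against 8.04, 8.02, 7.92 and 7.77 log2 in wild type. These overlapped (0.10 log2, limma adjusted p = 0.931), so most of the index difference came from the lower gene value.

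The same held for probe set 5507217 of Epb41l1, whose index differed by 0.19 log2 (SE 0.078, limma adjusted p = 0.722) and whose signal differed by -0.037 log2. Its wild type index values lay within -1.25 to -1.24 log2 and all Nova2 KO values were higher, between -1.13 and -0.99 log2. Probe set 5291198 had signals of 9.09, 9.11, 9.73 and 9.32 log2 in Nova2 KO, against 9.14, 8.95, 8.82 and 9.30 log2 in wild type. Nova2 KO array 3 was the highest, and without it the signal difference was 0.12 log2 in place of 0.26 log2 and the index difference 0.33 in place of 0.49 log2 (limma adjusted p = 0.724 with all arrays).

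The signals of Epb41l1 itself were lower by up to 0.65 log2, at probe set 5503502 (7.57, 7.30, 7.53 and 6.47 log2 in Nova2 KO, against 7.99, 7.80, 7.65 and 8.04 log2 in wild type). Nova2 KO array 4 was the lowest, and without it, a setting chosen after seeing the data, the difference was -0.40 log2. This probe set and the next were named after their values were seen. Probe set 5171015, at 11.95, 11.91, 11.83 and 11.80 log2 in Nova2 KO against 12.09, 12.03, 12.05 and 12.08 log2 in wild type, shows how narrow the spread could be. Its group SDs were 0.072 log2 in Nova2 KO and 0.027 log2 in wild type. The difference was -0.19 log2 (moderated SE 0.11, limma adjusted p = 0.797), and the groups of both probe sets did not overlap.

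Epb41l2, the gene of 4.1G, had the lowest Simes p of the family, 0.00466 (adjusted p = 0.389). It ranked 134 of 11187 genes, within the first 1.2%, where 18 genes (0.161%) passed and 936 (8.37%) had an unadjusted p under 0.05. This Simes p was set by the lowest index p among its 30 kept probe sets, that of 4658530 (limma unadjusted p = 0.000155). The rank therefore rests on that probe set and does not describe the gene as a whole. The probe sets of Epb41l2 parted in direction while the gene value stayed near 0, with 10 higher and 20 lower in signal. The 4 probe sets with an unadjusted index p under 0.05 on the lower side differed by 0.46 log2 or more, and the 3 on the higher side by 0.21 to 0.38 log2.

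Probe set 4658530 of Epb41l2 had the lowest index p of the family. Its signal was 8.71, 8.49, 8.68 and 8.23 log2 on Nova2 KO arrays 1 to 4, against 9.03, 9.53, 9.58 and 9.18 log2 on wild type arrays 1 to 4. All Nova2 KO arrays lay below all wild type arrays, by -0.80 log2 (SE 0.17, 95% interval -1.19 to -0.41, limma unadjusted p = 0.00113, adjusted p = 0.449), a wild type signal 1.74-fold that of Nova2 KO. The index differed by -0.82 log2 (SE 0.13, limma unadjusted p = 0.000155, adjusted p = 0.273) and lay between -0.90 and -0.67 log2 in 21 other settings, with adjusted p from 0.164 to 0.711.

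Probe set 4917510 of Epb41l2 had signals of 7.33, 7.93, 7.61 and 7.71 log2 in Nova2 KO, against 8.24, 8.38, 8.47 and 8.10 log2 in wild type. The groups did not overlap, and the signal differed by -0.65 log2 (SE 0.16, limma adjusted p = 0.552) and the index by -0.67 log2 (SE 0.13, limma adjusted p = 0.461). The index was at -1.83 on Nova2 KO array 1 and between -1.52 and -1.26 on the other Nova2 KO arrays, against -0.95 to -0.75 in wild type.

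Probe set 4959500 of Epb41l2 was at 9.19, 9.38, 9.09 and 8.73 log2 in Nova2 KO, against 9.75, 9.42, 9.68 and 9.30 log2 in wild type. Here the signals overlapped and the index did not (index difference -0.46 log2, SE 0.14, limma adjusted p = 0.661). Over the 8 arrays the index of 4658530 correlated with that of 4917510 at r = 0.772, but within groups, after each group mean was removed, at r = -0.400. Both probe sets were named for a lower index in Nova2 KO, so the first value follows in part from that choice. With 8 points from 2 groups, the second cannot decide whether they vary together among mice.

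On the other side, probe set 4461624 of Epb41l2 had signals of 9.12, 9.03, 9.40 and 9.34 log2 in Nova2 KO, against 8.60, 8.75, 9.10 and 8.84 log2 in wild type. The groups overlapped at wild type array 3, and the index differed by 0.38 log2 (SE 0.13, limma adjusted p = 0.683). Probe set 4970635 was at 9.08, 9.17, 9.17 and 9.08 log2 in Nova2 KO, against 8.68, 9.04, 9.04 and 8.68 log2 in wild type. Its groups did not overlap (signal 0.26 log2, limma adjusted p = 0.78; index 0.24 log2, adjusted p = 0.712). Probe set 5553905 did not overlap either, with 9.84, 9.68, 9.81 and 9.63 log2 in Nova2 KO against 9.46, 9.53, 9.54 and 9.54 log2 in wild type, and its index differed by 0.21 log2 (limma adjusted p = 0.732).

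A further set of Epb41l2 probe sets was variable between mice. Probe set 5120588, named after its values were seen, had signals of 7.86, 7.83, 8.29 and 6.48 log2 in Nova2 KO, against 8.02, 8.64, 8.61 and 7.59 log2 in wild type. The array numbered 4 was the lowest of each group, the groups overlapped, and the difference of -0.60 log2 had an SE of 0.39. Probe set 4387500, also named after its values were seen, showed the same width (8.13, 8.16, 6.84 and 6.89 log2 in Nova2 KO, against 7.88, 8.57, 8.29 and 7.32 log2 in wild type). Both arrays numbered 4 also had the lowest array medians, and the part of this in the signals was not tested.

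Epb41l3, the gene of 4.1B, had a Simes p of 0.0452 (adjusted p = 0.587, rank 858 of 11187). Its index was higher in 29 of 35 probe sets, with a median of 0.15 log2, although 27 of 35 signals were lower. The gene value differed by -0.23 log2, more than the median signal did (-0.081 log2), so a higher index of Epb41l3 is not by itself a higher signal.

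On the lower side of Epb41l3, signal and index were both lower. Probe set 5517310 had signals of 9.24, 9.02, 9.06 and 8.85 log2 in Nova2 KO, against 9.71, 9.72, 9.96 and 9.56 log2 in wild type. The groups lay clearly apart, at -0.69 log2 (SE 0.14, 95% interval -1.01 to -0.38, limma unadjusted p = 0.000689, adjusted p = 0.385), with the wild type signal 1.62-fold that of Nova2 KO. This was the lowest signal p among the protein 4.1 probe sets, and the index differed by -0.46 log2 (SE 0.11, limma adjusted p = 0.554).

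Probe set 5225515 of Epb41l3 had signals of 7.92, 7.60, 7.98 and 7.41 log2 in Nova2 KO, against 8.27, 8.52, 8.24 and 8.43 log2 in wild type. It did not overlap between groups, with differences of -0.64 log2 in signal (SE 0.16, limma adjusted p = 0.563) and -0.41 log2 in index (SE 0.13, limma adjusted p = 0.661). Probe set 5594301 was at 9.04, 9.04, 9.28 and 8.89 log2 in Nova2 KO, against 9.35, 9.55, 9.59 and 9.61 log2 in wild type. Its groups did not overlap, and it differed by -0.46 log2 in signal (SE 0.13, limma adjusted p = 0.634) and by -0.23 log2 in index (limma adjusted p = 0.726). With the mean over probe sets as the gene value, the index differences were -0.58 log2 for 5517310, -0.53 log2 for 5225515 and -0.35 log2 for 5594301. Without both arrays numbered 4 they were -0.46, -0.28 and -0.15 log2 in the same order.

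**Figure D3:**
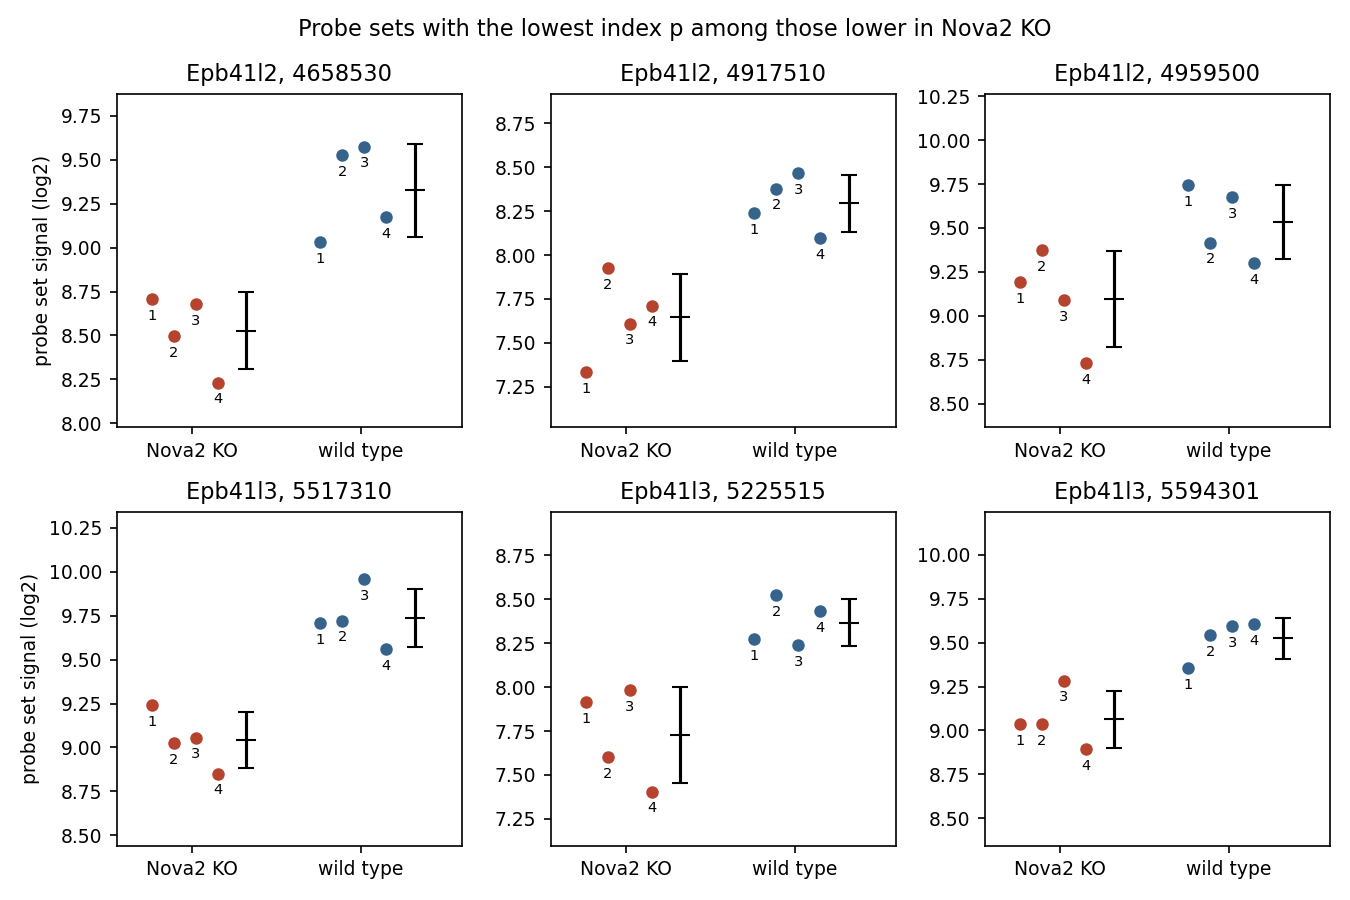
Signal (log2) on each array of the 3 Epb41l2 and 3 Epb41l3 probe sets with the lowest index p among those lower in Nova2 KO, which stands left of wild type; the digit under a point is the replicate number and the bar the mean ± SD (n = 4). The groups lie apart in 5 of the 6 panels and overlap in 4959500, and none of the 6 passed the adjusted threshold. The panels were picked by index p, so groups that lie apart follow in part from that choice. Among all kept probe sets, all Nova2 KO signals lay below all wild type signals in 2.04%. Each panel spans the same number of log2 units.

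Of the Epb41l3 probe sets with a higher index, 4866829 had the lowest p. Its index was -0.63, -0.64, -0.71 and -0.68 on Nova2 KO arrays, against -1.03, -1.16, -0.97 and -1.32 on wild type arrays. The groups did not overlap (0.45 log2, SE 0.098, limma adjusted p = 0.516). Its signals were 8.79, 8.61, 8.82 and 8.64 log2 in Nova2 KO, against 8.43, 8.53, 8.77 and 8.24 log2 in wild type, and these did overlap (0.22 log2, limma unadjusted p = 0.158). For 4906628 and 4530833 the index differed by 0.33 and 0.30 log2 and the signal by only 0.093 and 0.064 log2. With the mean over probe sets as the gene value their index differences were 0.21 and 0.18 log2.

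The filter left out 8 protein 4.1 probe sets, with means of 4.76 to 5.66 log2 over the arrays, while the lowest kept one was at 5.97 log2. Of these, 1 belonged to Epb41l1, 2 to Epb41l2 and 5 to Epb41l3, and their differences lay between -0.53 and 0.79 log2. The largest was that of probe set 4828711 of Epb41l3, named after its values were seen. It was at 5.004, 5.191, 5.395 and 5.613 log2 in Nova2 KO, against 4.621, 4.510, 4.401 and 4.514 log2 in wild type. These groups did not overlap, but at this height signals are close to the floor of 4 log2 of the deposited values. In the fit without a filter, no protein 4.1 probe set passed by signal or by index.

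The genes most like each member over the arrays were found by Pearson correlation of gene values over 8 arrays, among all 11992 genes, and are given as a description. For Epb41l1 they were Hcrtr1 (r = 0.981), a receptor of the orexin peptides, Jade1 (r = 0.975) and Lrp1 (r = 0.974), a lipoprotein receptor. For Epb41l2 they were Fhod3 (r = 0.981), Galnt3 (r = 0.958) and Wrn (r = 0.957). For Epb41l3 they were C2cd2l (r = 0.984), Pla2g5 (r = 0.955) and Mbp (r = 0.946), the myelin basic protein gene. All points share array medians and group means, and Epb41l2 correlated with the array median at r = 0.779. Among themselves, Epb41l1 and Epb41l3 correlated at r = 0.571, and at r = -0.105 once group means were removed.

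Markers of myelinating cells were lower beside Epb41l1 and Epb41l3. Of 7 listed oligodendrocyte and myelin genes 6 were measured, all 6 were lower in Nova2 KO and 1 passed over all genes, Mog (-0.77 log2, SE 0.13, limma adjusted p = 0.0301). Their mean gene value was 8.72 to 9.06 log2 on Nova2 KO arrays, against 9.29 to 9.57 log2 on wild type arrays. Of the other glial and vascular lists none passed with limma: microglia markers were lower in 5 of 5 (median -0.18 log2, Itgam -0.32 log2 with an unadjusted p under 0.05), endothelial markers in 4 of 4 (median -0.066 log2) and astrocyte markers in 3 of 4 (median -0.086 log2). Most neuronal markers were higher in Nova2 KO, and none passed with limma. Neuron markers were higher in 4 of 4 (median 0.091 log2) and interneuron markers in 4 of 5 (median 0.010 log2). Those of cortical excitatory neurons were higher in 3 of 4 (median 0.20 log2, Neurod6 0.29 log2 with an unadjusted p under 0.05). The lowest oligodendrocyte marker, Mag, averaged 8.52 log2, so none lay at the floor. Fewer cells of a type and less RNA per cell cannot be told apart in such samples, and the part of any of these cells in the Epb41l1 and Epb41l3 values was not tested.

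Of the 8 listed erythroid markers 3 were measured (Alas2, Slc4a1 and Epb42). All 3 were lower in Nova2 KO and none passed with limma, with an unadjusted p under 0.05 for Alas2 and Slc4a1. Their mean gene value was 6.69 to 7.22 log2 on Nova2 KO arrays, against 7.12 to 7.49 log2 on wild type arrays. Their part in the values of the family was not tested.

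Around the family, 85 genes were listed by role: spectrins, ankyrins, other proteins of the spectrin and actin junction, MAGUK scaffolds, adhesion molecules, receptors and intracellular proteins that protein 4.1 members bind, and other genes with a FERM domain. Of these, 74 had a gene value, 44 higher and 30 lower, with a median of 0.023 log2 beside 0.022 log2 over all genes. By gene value 1 passed (limma), and by exon usage 4 of 74 passed the Simes test, where 0.208% and 0.161% of all genes did so. The list was chosen with earlier results of these data known. These shares therefore cannot show whether partners of the family differ more often than other genes. At an unadjusted p under 0.05 there were 11 by gene value and 15 by the Simes test, beside 11.6% and 8.37% of all genes.

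The gene that passed was Itpr1, which encodes the inositol trisphosphate receptor that 4.1N binds. Its gene values were 8.225, 8.411, 8.228 and 7.899 log2 in Nova2 KO, against 9.383, 9.424, 9.420 and 8.999 log2 in wild type. It fell by 1.12 log2 (SE 0.13, limma adjusted p = 0.00574), beside the -0.23 log2 of Epb41l1 without a call. The AMPA receptor subunit genes Gria1 (0.046 log2) and Gria4 (0.041 log2), whose products 4.1N is known to bind, did not pass (limma adjusted p = 0.911 and 0.939). Drd2, also on the receptor list, was at -0.27 log2 (limma adjusted p = 0.498). Grik2 of the same list did not pass by gene value but passed by exon usage, as given below. Of the 9 measured receptors, 3 were higher and 6 lower in Nova2 KO. Cntnap2, a partner of 4.1B, was at 0.058 log2 (limma adjusted p = 0.887). The lowest p of the 12 measured adhesion molecules was that of Cntnap1, at -0.51 log2 (limma unadjusted p = 0.00607, adjusted p = 0.263). Of these 12 genes, 7 were higher and 5 lower in Nova2 KO. The genes of this paragraph other than Itpr1 were named after their values were seen. The count of partner genes past the threshold by gene value was 2 without wild type 4, and 4 with the array median as a covariate.

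The next by p were 2 MAGUK scaffold genes and a FERM gene, and none of them passed. Dlg3, the gene of the synaptic scaffold SAP102, was at 9.35, 9.43, 9.28 and 9.09 log2 in Nova2 KO, against 9.89, 10.05, 10.10 and 9.68 log2 in wild type (-0.64 log2, SE 0.12, limma adjusted p = 0.0584). Frmd3 was higher by 0.62 log2 (SE 0.14, limma adjusted p = 0.138) and Mpp2 lower by 0.37 log2 (limma adjusted p = 0.237). The groups did not overlap for any of the 3, which follows in part from picking them by p. All Nova2 KO gene values lay below all wild type values in 2.5% of all genes tested. The share in the other direction, that of Frmd3, was not counted. By role, the medians were -0.052 log2 for 5 spectrins, -0.034 log2 for 2 ankyrins, 0.011 log2 for 14 junction proteins, 0.076 log2 for 9 MAGUK scaffolds and 0.064 log2 for 12 adhesion molecules. They were -0.015 log2 for 9 receptors, 0.036 log2 for 6 intracellular partners and 0.066 log2 for 17 other FERM genes.

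**Figure D4:**
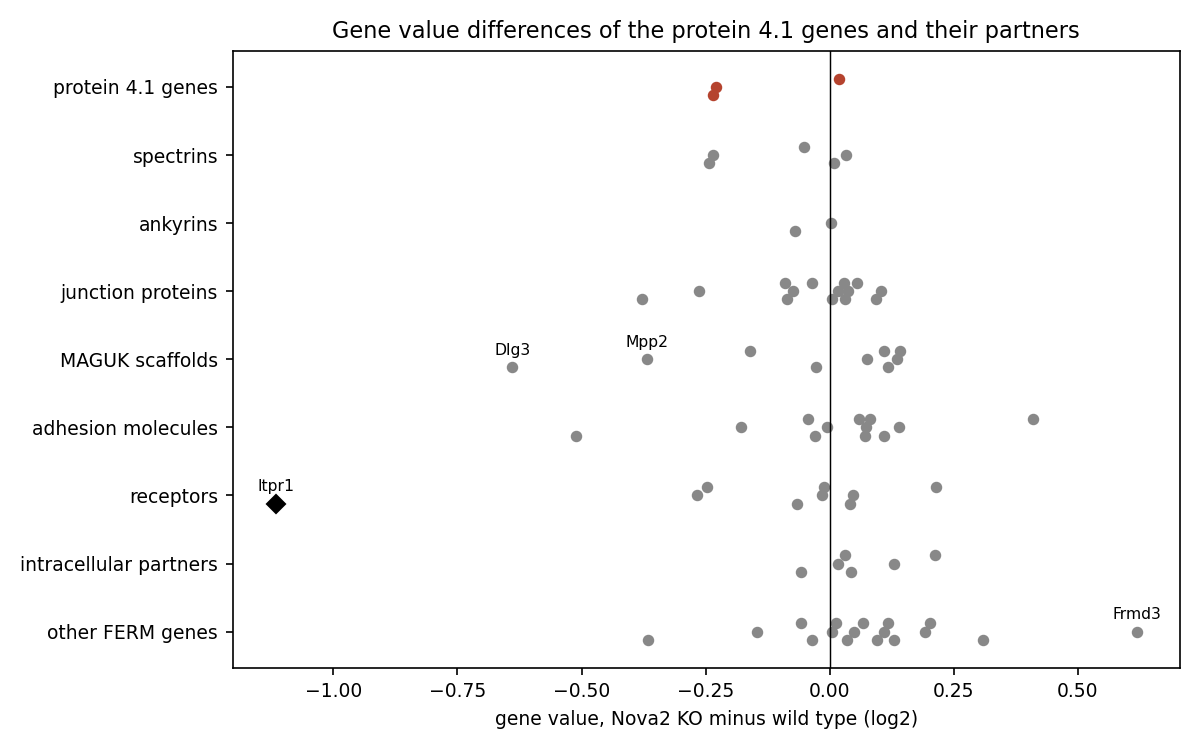
Gene value difference, Nova2 KO minus wild type (log2), of the 3 protein 4.1 genes (red) and of 74 listed partner genes by role (grey); a black diamond marks an adjusted p under 0.05 over all genes and vertical offsets only separate points. Itpr1 at -1.12 log2 is the 1 gene that passed, and the protein 4.1 genes lie at -0.23, -0.23 and 0.018 log2.

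In exon usage the genes that passed were Ank3 (ankyrin-G), Ank2 (ankyrin-B), Sptan1 (the alpha spectrin outside red cells) and Grik2 (a kainate receptor subunit). Ankyrins anchor membrane proteins to the same spectrin skeleton that protein 4.1 binds. The leading Ank2 probe set, 5483488, had index values of 0.38, 0.27, 0.59 and 0.52 in Nova2 KO, against -1.36, -1.29, -1.19 and -1.11 in wild type. That of Sptan1, 5084491, was at -1.56, -1.35, -1.52 and -1.63 in Nova2 KO, against -0.20, -0.15, -0.23 and -0.15 in wild type. The leading index differences were 2.75 log2 in Ank3, 2.49 log2 in Grik2, 1.68 log2 in Ank2 and -1.33 log2 in Sptan1 (limma adjusted p = 0.00361 for Ank3 and 0.00484 for each of the others). The largest in the protein 4.1 family was -0.82 log2, and a difference between the family and these genes was not tested. Without wild type 1, without wild type 3 or without both arrays numbered 4 the count of 4 partner genes was 0, without Nova2 KO 4 it was 1 and without Nova2 KO 1 it was 2. With a term for the replicate number in the fit the count was 1, and with diffSplice it was 11.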

How the data were processed

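Total RNA from the cortex of 8 mice was measured on exon arrays, 1 array per mouse. The authors deposited log2 values of 391597 probe sets, made with PLIER per the submitters' processing notes. Background correction, normalization and genome build were not stated there, and no coordinates are printed. The lowest deposited value was about 4 log2, as an offset of 16 before the logarithm would give.

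Gene names came from the platform annotation, in which 228454 probe sets had 1 gene, 3443 several and 159700 none. Kept probe sets had a mean above the 25th percentile (5.86 log2). The gene value was the median of at least 3 kept probe sets of a gene, and the index was tested in genes with at least 5. Differences are Nova2 KO minus wild type, fitted with limma 3.58.1 (lmFit and eBayes, R 4.3.3) over the whole table, with Benjamini-Hochberg adjustment and a threshold of 0.05. Index p-values were combined per gene by the Simes rule. The scripts were tested on simulated data.

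The probe sets named are the 3 with the lowest index p on each side in each gene where that p was under 0.05, with, of the partner genes, those past the threshold and the 4 with the lowest gene value p; exceptions are marked in the text. The members and all lists were chosen with earlier results of these data known. Alternatives were other scalings, filters, offsets, gene values and index definitions, diffSplice, array weights, a replicate block and leaving out arrays. The number of arrays limits the precision.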

Additional observations from a re-analysis of the deposited data

Results flagged for a closer look

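Among the named probe sets and the gene values, 4 of 66 groups of 4 arrays held an array far from the other 3 (a gap to the nearest above Dixon's critical value), which chance gives in about 5% of such groups. In Epb41l2, the signal of probe set 5553905 was 9.46 log2 on wild type array 1 and 9.53 to 9.54 log2 on the other wild type arrays. In Epb41l3, the signal of probe set 4530833 was 10.12 log2 on wild type array 3 and 10.01 to 10.03 log2 on the others. The index of the same probe set was 0.47 on Nova2 KO array 3 and 0.80 to 0.84 on the other Nova2 KO arrays. The index of Epb41l3 probe set 5225515 was -1.50 on wild type array 3 and -1.19 to -1.13 on the others. Their cause was not tested.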

How the results depend on the processing

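No protein 4.1 probe set or gene passed the adjusted threshold in any alternative run: 21 for the index, 18 for signal, 19 for the gene value and 20 for the Simes p. The gene value difference of Epb41l2 turned sign, to -0.13 log2 with the mean over probe sets, -0.00094 log2 without Nova2 KO replicate 2, -0.0078 log2 without wild type replicate 1 and -0.0025 log2 without wild type replicate 4, and spanned -0.0078 to 0.060 log2 when 1 array was left out. That of Epb41l1 lay between -0.27 and -0.18 log2 and that of Epb41l3 between -0.29 and -0.11 log2. The count of partner genes past the threshold by gene value was 1, and 2 with median centring, quantile normalization, array weights, the mean gene value, or eBayes with trend and robust. It was 4 with the array median as a covariate and 4 with the replicate block, and 1 to 2 when 1 array was left out. By the Simes p it was 4, and 11 with diffSplice, 0 without both arrays numbered 4, 1 with the replicate block, and 0 to 4 when 1 array was left out. The causes were not tested. The replicate numbers were not taken as pairs in the main fit, since no label ties them. Deviations of same-numbered arrays correlated at 0.131, 0.411, 0.0818 and 0.521, all positive but 1 of them weak. Of the arrays, 4 of 4 Nova2 KO and 3 of 4 wild type correlated best with their own number. These values do not show that the arrays were unpaired, and the main fit has no term for the number.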
